A study of Mus musculus with 37 samples.

Results

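The sample titles of this series open with a number, and this account compares the higher with the lower numbers inside each of the 4 groups of strain and genotype. All 37 arrays enter, 18 in the higher set and 19 in the lower set. The higher set held 5 arrays from 129SV mice lacking Wfs1 (129SV KO, numbers 55 to 59), 4 from 129SV wild types (129SV WT, 76 to 79), 4 from C57 mice lacking Wfs1 (C57 KO, 8, 9, 10 and 17) and 5 from C57 wild types (C57 WT, 33, 34, 37, 40 and 42). The lower set held 5 from 129SV KO (50 to 54), 5 from 129SV WT (70 to 74), 5 from C57 KO (1, 2, 3, 5 and 7) and 4 from C57 WT (25, 26, 28 and 29). Every sample was RNA from mouse temporal lobe, dissected under a microscope, frozen and hybridized as labelled cRNA to Affymetrix arrays. The strains are named here as on the samples, and the series design gives them as C57B6 and 129S6. The labels name no promoter, allele or age, and they do not say what the sample numbers stand for or whether each array was a different animal. The p-values therefore cover the spread from array to array and nothing wider.

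The sets were chosen by the array signals themselves, with Gprin3, Map1b and Malat1 as markers, after which they were written as number ranges. The difference between the higher and the lower set is therefore given as a description without a test. Tests are given only for contrasts on which the sets were not chosen, which are whether that difference varied with strain or genotype, and KO against WT inside each set. Signals are log2 values, and a difference of 1 means a signal doubled on the linear scale. Gprin3 encodes a G protein-regulated inducer of neurite outgrowth, Map1b a microtubule-associated protein of growing axons, and Malat1 a long noncoding RNA that stays in the nucleus. On this kind of array a gene is often read by several probe sets, each a group of short oligonucleotides lying mostly near one 3′ end of a transcript, so probe sets of one gene can follow different transcript ends.

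The arrays were alike overall. Array medians lay between 4.30 and 4.36, and correlations between arrays over all probe sets lay between 0.974 and 0.997. Wfs1, the deleted gene, read 2.64 to 3.60 on the KO arrays and 9.11 to 9.73 on the WT arrays in both sets, so no array went against its genotype label. Forebrain markers were present on every array, with Snap25, a synaptic vesicle fusion protein, at 11.49 to 12.27 and Camk2a, a kinase of excitatory neurons, at 10.93 to 11.93. Of 18193 genes, 13078 had a signal high enough to be used, and each is read through its brightest probe set unless stated.

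Gprin3 (probe set 1439566_at, chromosome 6) differed most. In 129SV KO it read 5.66, 4.43, 5.79, 5.28 and 6.16 on the higher-number arrays, and 3.01, 2.58, 2.39, 2.86 and 2.65 on the lower-number arrays. In 129SV WT it read 5.42, 5.54, 5.67 and 5.04 on the higher-number arrays, and 3.08, 2.78, 2.50, 3.01 and 2.60 on the lower-number arrays. All higher-number arrays of 129SV lay above all lower-number ones, and the lower values lay under the detection filter of 3.60. In C57 KO it read 5.46, 4.72, 5.13 and 6.02 on the higher-number arrays, and 2.93, 2.41, 2.53, 3.05 and 2.94 on the lower-number arrays. In C57 WT it read 5.69, 6.10, 5.29, 6.07 and 5.63 on the higher-number arrays, and 2.55, 3.24, 3.06 and 2.65 on the lower-number arrays. The sets did not overlap in C57 either. The mean difference within groups was 2.71 (SE 0.12, n = 18 and 19), and the 4 groups ranged from 2.56 to 2.88. The number ranges were set from these signals, so a step at their boundary follows from that choice. Next to it, arrays 55 and 54 of 129SV KO read 5.66 and 2.65. Arrays 8 and 7 of C57 KO read 5.46 and 2.94.

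**Figure D1:**
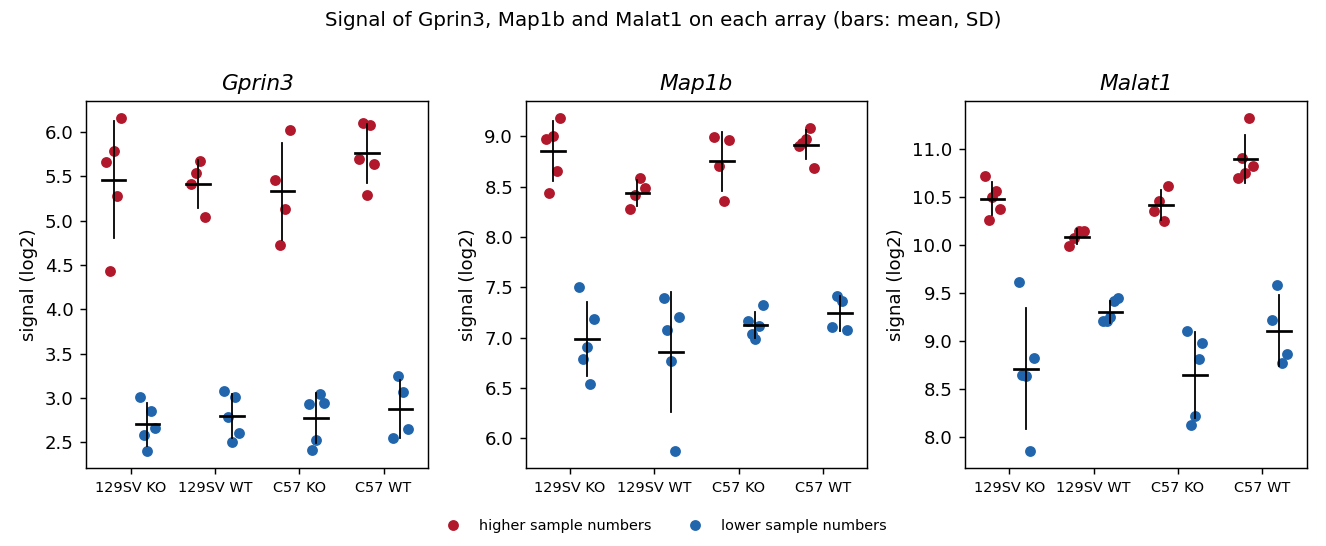
Signal (log2, vertical axis) of Gprin3, Map1b and Malat1 on every array, by group of strain and genotype (horizontal axis), with the higher sample numbers in red left of the lower ones in blue, a bar at each mean and a line of 1 SD either way. Within every group the red points lie above the blue points for all 3 genes, with Gprin3 at 4.43 to 6.16 against 2.39 to 3.24.

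Map1b (1450397_at, chromosome 13) ranged from 8.28 to 9.18 with a median of 8.80 on the higher-number arrays, and from 5.87 to 7.51 with a median of 7.11 on the lower-number arrays. The sets did not overlap, and the difference was 1.69 (SE 0.10), with 1.87 in 129SV KO, 1.58 in 129SV WT, 1.63 in C57 KO and 1.67 in C57 WT. The lowest value belonged to array 73 of 129SV WT, which also had the largest gap between the 3′ and 5′ actin controls, a sign of RNA quality, at 2.76. Without that array the Map1b difference was 1.64. Malat1 (1438403_s_at, chromosome 19) ranged from 9.99 to 11.32 with a median of 10.48 on the higher-number arrays, and from 7.85 to 9.61 with a median of 8.98 on the lower-number arrays. Its difference was 1.53 (SE 0.13). It was 0.78 in 129SV WT, and 1.77 in 129SV KO, 1.77 in C57 KO and 1.79 in C57 WT. The Malat1 probe set 1418188_a_at was also lowest in 129SV WT, at 0.90 against 1.38 to 1.81. The probe set 1418189_s_at was not, at 1.53 against 1.41 to 1.59, and dimmer Malat1 probe sets went both ways. The strain contrast of the Malat1 difference did not pass the test described below (−0.50, SE 0.21, limma adjusted p = 0.252). Malat1 was a marker by which the sets were chosen, so nothing is read from that result.

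The other genes were counted by their size of difference. A size rule asked for a difference of at least 0.5 with the same sign in all 4 groups. By this rule 59 of 13078 genes (0.451%) were higher on the higher-number arrays and 6 (0.0459%) were lower, and 7 (0.0535%) were higher by at least 1. The sets did not overlap in any of the 4 groups for 42 genes (0.321%) with the higher numbers above and for 2 (0.0153%) with the higher numbers below. The median difference over all genes was −0.03, and single genes lay between −0.64 and 2.71. These shares describe the contrast that proposed the sets, and nothing is read from them.

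Genes with the largest differences had varied roles. Pde1a, a calmodulin-dependent phosphodiesterase, read 7.44 to 8.23 on the higher-number arrays and 4.56 to 6.55 on the lower-number arrays, a difference of 1.64 (SE 0.11). Srpk2, a kinase of splicing factors, had a difference of 1.35 (SE 0.08), and Evi5, a Rab regulator of the cell cycle, had 1.22 (SE 0.07). The next were Thoc2 of the mRNA export complex THO at 0.98, Ankrd12 at 0.98, the G-quadruplex helicase Dhx36 at 0.97, Csnk2a1, a catalytic subunit of casein kinase 2, at 0.97, Xkr6 at 0.95 and the synaptic adhesion protein Nlgn1 at 0.94. In all of these the sets were apart in each group. Nlgn1 resembled the brightest Malat1 probe set in having its smallest difference in 129SV WT, at 0.51 against 1.06 to 1.09 in the other groups.

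Differences in the other direction were smaller. Klf13, a zinc finger transcription factor, read 7.15 to 8.64 on the higher-number arrays and 8.50 to 8.93 on the lower-number arrays. The sets overlapped over all arrays but not within any group, and the difference was −0.64 (SE 0.08). Mir99ahg, a host transcript of microRNAs, was the other gene apart in every group, at −0.60 (SE 0.07). Myo1h at −0.60 and the pseudogene Tes3-ps at −0.55 were apart in 2 and 3 groups. Rpgrip1 at −0.53 (SE 0.32) and Xaf1 at −0.52 (SE 0.32) were also lower by the size rule. In C57 their arrays spread over several log2 units, with Xaf1 at 2.50 to 6.08, while in 129SV Xaf1 lay between 5.98 and 6.59. The transcription factor Nfic at −0.44 and Tet2, which oxidizes methylated cytosine in DNA, at −0.39 were among the genes under the limit of 0.5.

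**Figure D2:**
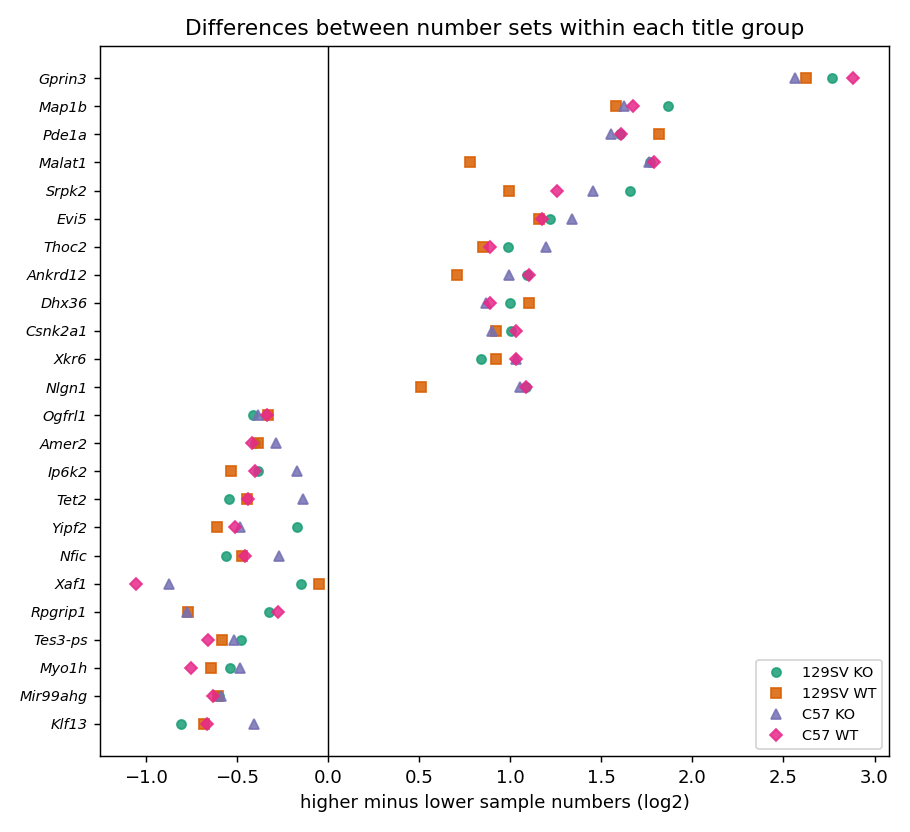
Difference between the higher and the lower sample numbers (log2, horizontal axis) in each of the 4 groups of strain and genotype for the 12 genes with the largest and the 12 with the lowest mean difference of the same sign in all groups. Each gene is read by its brightest probe set. The 4 symbols lie close together for Gprin3, at 2.56 to 2.88, while Malat1 and Nlgn1 have the 129SV WT symbol well to the left of the others.

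The functional lists are given by how many members met the size rule, beside the 0.451% of all genes that were higher. The Map1b, Malat1 and Gprin3 lists were drawn up around the markers that the sets were chosen by. Of the cytoskeletal list 2 of 31 genes were higher, Map1b and the kinesin motor Kif5b (0.53). Among 29 splicing and nuclear RNA-binding genes 1 was higher, Srrm2, a large SR-related protein of the spliceosome, which read 10.31 to 11.15 on the higher-number arrays and 9.69 to 10.34 on the lower-number arrays (0.73, SE 0.06). Malat1 was the single gene of 19 nuclear noncoding RNAs, and Gprin3 that of 12 Gprin family and G protein alpha genes. The early gene Btg2, an antiproliferative regulator, was higher by 0.59 and was the single such gene of 27 activity-induced genes, and Uty, on the Y chromosome, was higher by 0.52 and was the single such gene of 4 sex-linked genes. Their median was −0.09, and the Y-linked Eif2s3y and Kdm5d stood at −0.15 each. No member of the lists for ribosomal proteins (26 genes), respiratory chain (39), proteasome (26), glutamate receptors (13), myelin (16), astrocytes (14), microglia (13), vessels (17) or cortical layers (15) reached 0.5. Among lists of at least 5 measured genes, the median difference ran from −0.11 for myelin to 0.11 for choroid plexus, beside −0.03 for all genes. Transthyretin (Ttr), the main choroid plexus transcript, differed by 0.75 with an SE of 0.65 and had opposite signs in 129SV KO (1.29) and 129SV WT (−0.97).

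Probe sets of 1 gene often disagreed. The recount behind this was added after the data had been seen. Among all 23321 probe sets past the filter, 478 were higher by at least 0.5 with the same sign in 4 groups and 13 were lower. The 478 came from 420 genes, against 59 genes by the brightest probe set. Of the brightest probe sets of genes, 0.451% were higher, against 4.09% of the 10243 other probe sets. For 387 of those 419 other probe sets, the brightest probe set of the same gene differed by less than 0.25. Conversely, 44 of the 59 genes named by their brightest probe set had 99 further probe sets past the filter, of which 15 met the rule and 77 differed by less than 0.25.

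Snhg11, a noncoding transcript abundant in neurons, showed this most. Its probe set 1437311_at read 9.06 to 9.85 on the higher-number arrays and 5.81 to 6.58 on the lower-number arrays, a difference of 3.33 that exceeded that of Gprin3. The brightest Snhg11 probe set, 1434292_at, differed by 0.01. Nceh1, a lipid ester hydrolase, had a probe set at 7.42 to 8.73 on the higher-number arrays and 4.13 to 5.34 on the lower-number arrays (3.07), with −0.01 for its brightest one. The ubiquitin ligase Cbl had 2.91 with −0.05 for its brightest probe set, the anchoring protein Akap9 2.74 with 0.04, Scaf11 2.67 with −0.11 and the neuronal kinesin Kif5c 2.29 with −0.07. The markers were divided as well. Malat1 had 3 probe sets at 1.40 to 1.53, with its 4 others at 0.62, 0.29, 0.01 and −0.03, and a second Map1b probe set differed by 0.25. The Gprin3 difference rests on 1 probe set. Its other one, 1430834_at, lay under the filter with a mean signal of 2.23 and differed by 0.03. Gprin3 did not pass the filter by the mean of its probe sets. With the mean of all probe sets of a gene, the difference was 0.69 for Map1b, 0.76 for Malat1, 0.84 for Pde1a, 0.49 for Srpk2 and −0.30 for Klf13. Probe sets higher by 0.5 belonged to longer genes, with a median gene length of 64.8 kb against 28.6 kb for all that passed, and the median signal was 5.86 against 6.11. Gene lengths are from RefSeq, and neither was tested.

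**Figure D3:**
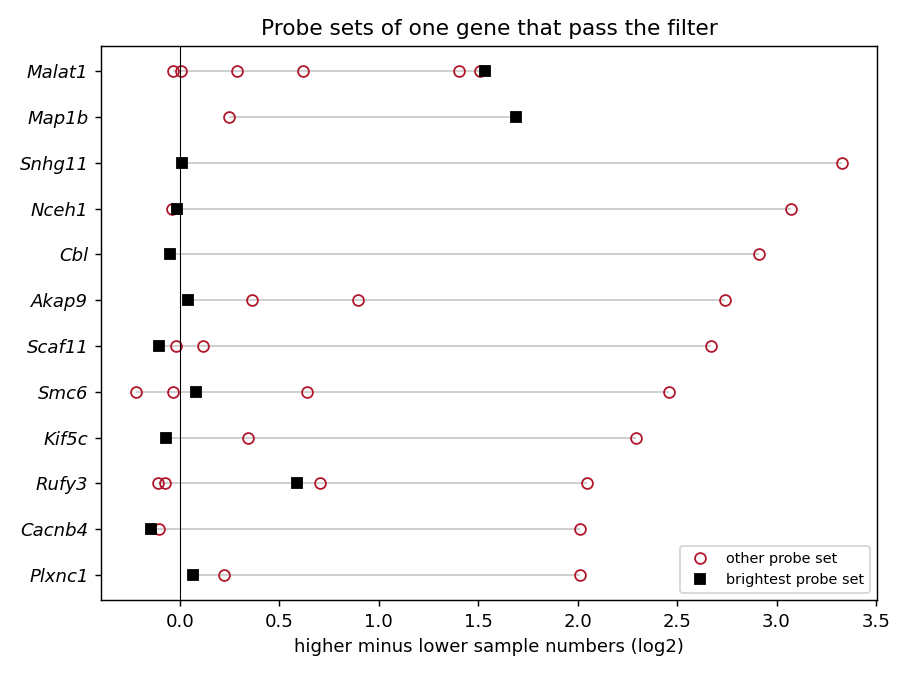
Difference between the higher and the lower sample numbers (log2, horizontal axis) for each probe set past the filter of Malat1, Map1b and the 10 genes with the largest single probe set difference; black squares are the brightest probe set of the gene and open circles the others. Snhg11, Nceh1, Cbl, Akap9 and Scaf11 each have 1 circle beyond 2.6 and a square within 0.11 of 0.

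The array controls differed unevenly across the groups. The 3′ minus 5′ difference was 0.91 to 1.94 for actin on the higher-number arrays and 1.06 to 2.76 on the lower-number arrays, a difference of −0.25 (SE 0.11). For Gapdh it was −0.17 (SE 0.08). Spiked-in hybridization controls differed by −0.15 (SE 0.07). Spiked-in labelling controls differed by 0.38 in 129SV KO, −0.95 in 129SV WT, −0.40 in C57 KO and −0.13 in C57 WT. The 5′ probe set for 18S ribosomal RNA had the widest difference, 2.04 in 129SV KO, −0.14 in 129SV WT, 0.99 in C57 KO and 2.24 in C57 WT. Its 3′ probe set differed less, by 0.31 (SE 0.26), with 0.63, −0.29, 0.33 and 0.54 in the same order of groups. For the labelling controls, array 73 of 129SV WT read 5.30, inside the range of 5.17 to 6.75 of the lower-number arrays of that group. The higher-number arrays of 129SV WT read 4.60 to 4.98 there. For the 5′ probe set of 18S RNA, array 73 stood apart at 8.34. The other lower-number arrays of that group read 5.84 to 6.75, and the higher-number ones 6.31 to 6.84. For actin, array 73 stood at 2.76 and the other lower-number arrays of 129SV WT at 1.06 to 1.77. Malat1 had 0.78 in 129SV WT by its brightest probe set, but 1.53 by the probe set 1418189_s_at. Gprin3 and Map1b had 2.62 and 1.58 in that group. The part of these controls in the gene differences was not tested. Within groups, the number set accounted for 93.6% of the residual variance of Gprin3, 89.8% of Map1b and 81.3% of Malat1. The sets were chosen by these markers, so such large shares follow from that choice. The median was 3.64% over all genes, and the share was over 50% in 154 of 13078 genes. These values too describe the contrast that proposed the sets, and nothing is read from them. The median residual SD was 0.157 with the number set in the model and 0.161 without it.

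Whether the difference between sets varied with genotype or strain was tested over all 13078 genes with limma and Benjamini-Hochberg adjustment. No gene passed for KO against WT (0%, with 403 genes or 3.08% at an unadjusted p under 0.05), and none passed for the three-way contrast with strain (0%, with 681 or 5.21% unadjusted). For strain, taken as the difference between sets in 129SV minus that in C57, 73 genes passed (0.558%), 67 positive (0.512%) and 6 negative (0.0459%), with 1897 (14.5%) at an unadjusted p under 0.05. An F test over all 3 contrasts passed for 10 genes (0.0765%, with 8.98% unadjusted). All 73 genes of the strain contrast had the same sign in KO and in WT mice. The contrast averages KO and WT, so calling genes by it favours such agreement. In 65 of them the mean difference between sets was positive in 129SV and negative in C57, and in 61 this held in both genotypes. The count was 148 without 129SV KO array 57 and 118 without 129SV KO array 59. The numbers of the 2 strains do not overlap, so whatever else set the number sets of 129SV apart from those of C57 cannot be told apart from strain. In bulk tissue, fewer cells of a type and less RNA per cell cannot be told apart either.

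Heat shock genes and genes of the unfolded protein response were among those that differed by strain. Heat shock proteins refold or hold damaged proteins in the cytosol, and their genes carry heat shock elements bound by heat shock factors. The unfolded protein response raises chaperones of the endoplasmic reticulum, in part through a promoter motif called the ER stress element, and wolframin, the product of Wfs1, is a membrane protein of that compartment. Of 17 heat shock and chaperone genes 6 passed, all positive, beside 0.558% of all genes, and the median of the list was 0.28 with 16 of 17 positive. Of 32 ER stress genes 4 passed, all positive, with a median of 0.16 and 29 of 32 positive. Over all genes tested the median was 0.03, and 7812 of 13078 were positive. These lists were described by their counts and not tested as sets.

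Chordc1, a co-chaperone of Hsp90, shared the lowest adjusted p with Fosl2 (0.57, SE 0.09, limma adjusted p = 0.0007). It averaged 8.30 ± 0.18 on the higher-number arrays and 7.98 ± 0.14 on the lower-number arrays of 129SV KO (SD, n = 5 each), and 8.43 ± 0.09 and 8.08 ± 0.05 in 129SV WT (n = 4 and 5). In C57 the order turned, with 8.12 ± 0.14 and 8.23 ± 0.07 in KO (n = 4 and 5) and 7.95 ± 0.14 and 8.32 ± 0.14 in WT (n = 5 and 4). In 129SV WT and in C57 WT the sets did not overlap. The other heat shock genes that passed were Hspa1b (0.75) and Hspa1a (0.45), which encode the inducible Hsp70 and are near-identical copies whose signals may be shared, Hsph1 (0.34), Stip1 (0.33) and the mitochondrial chaperonin Hspd1 (0.26). Hspa1b and Hspd1 lay near the threshold, with limma adjusted p of 0.0495 and 0.0472. After quantile normalization Hspa1b (limma adjusted p = 0.101), Hspd1 (0.112), Hspa1a (0.0923) and Stip1 (0.112) did not pass. Hspa1b also missed the threshold with no filter (limma adjusted p = 0.0510), median centring (0.0547) and a trended, robust prior (0.0527), and Hspd1 with no filter (0.0675) and the actin covariate (0.0512).

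Hspa5, the main ER chaperone BiP, differed by 0.54 (SE 0.08, limma adjusted p = 0.0011). In 129SV KO it read 10.54, 10.27, 10.54, 10.29 and 10.50 on the higher-number arrays, and 10.29, 10.17, 10.14, 9.85 and 10.05 on the lower-number arrays. In 129SV WT it read 10.52, 10.73, 10.50 and 10.63 on the higher-number arrays, and 10.07, 10.26, 10.15, 10.03 and 10.16 on the lower-number arrays. The sets were apart in 129SV WT and overlapped narrowly in 129SV KO. In C57 KO it read 10.31, 10.39, 10.17 and 10.26 on the higher-number arrays, and 10.38, 10.22, 10.42, 10.33 and 10.32 on the lower-number arrays. In C57 WT it read 10.15, 10.31, 10.33, 10.02 and 9.95 on the higher-number arrays, and 10.40, 10.53, 10.28 and 10.32 on the lower-number arrays. The C57 sets overlapped in both genotypes. A second Hspa5 probe set gave 0.69 and another −0.14. The other ER genes that passed were Creld2 (0.50), the secreted factor Manf (0.44) and the disulfide isomerase Pdia6 (0.39), which did not pass with the mean of its probe sets (limma adjusted p = 0.138).

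Promoter windows of 300 bases, lying mostly before the annotated start, were read from RefSeq (GRCm38.p6) for these genes. The windows shown are those of Chordc1 and of the ER genes that passed, each holding the motif named for its list. Capitals mark the heat shock element (GAANNTTCNNGAA) in Chordc1 and the ER stress element (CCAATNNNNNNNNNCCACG) in the 3 ER genes, searched on both strands, and overlapping matches are joined. Each sequence runs 5′ to 3′ on the strand of the gene.
Chordc1 (chr9:18292017-18292316, plus strand): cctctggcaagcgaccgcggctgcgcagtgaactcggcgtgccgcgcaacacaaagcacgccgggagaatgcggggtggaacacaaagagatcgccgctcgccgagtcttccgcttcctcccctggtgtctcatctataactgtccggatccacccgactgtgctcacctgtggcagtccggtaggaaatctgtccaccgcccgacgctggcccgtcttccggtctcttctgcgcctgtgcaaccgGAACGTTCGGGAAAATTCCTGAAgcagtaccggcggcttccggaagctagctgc
Hspa5 (chr2:34771840-34772139, plus strand): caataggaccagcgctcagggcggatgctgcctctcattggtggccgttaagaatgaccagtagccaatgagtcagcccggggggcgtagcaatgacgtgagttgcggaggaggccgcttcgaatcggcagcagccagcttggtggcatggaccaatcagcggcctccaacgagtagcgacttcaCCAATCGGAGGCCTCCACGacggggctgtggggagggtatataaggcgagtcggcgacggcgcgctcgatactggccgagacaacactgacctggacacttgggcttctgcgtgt
Pdia6 (chr12:17266339-17266638, plus strand): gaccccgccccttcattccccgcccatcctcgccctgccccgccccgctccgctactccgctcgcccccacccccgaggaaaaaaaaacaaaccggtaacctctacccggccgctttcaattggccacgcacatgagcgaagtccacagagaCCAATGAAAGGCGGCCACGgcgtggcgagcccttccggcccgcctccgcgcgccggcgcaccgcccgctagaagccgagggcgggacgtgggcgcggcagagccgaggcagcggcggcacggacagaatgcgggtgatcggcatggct
Creld2 (chr15:88819396-88819695, plus strand): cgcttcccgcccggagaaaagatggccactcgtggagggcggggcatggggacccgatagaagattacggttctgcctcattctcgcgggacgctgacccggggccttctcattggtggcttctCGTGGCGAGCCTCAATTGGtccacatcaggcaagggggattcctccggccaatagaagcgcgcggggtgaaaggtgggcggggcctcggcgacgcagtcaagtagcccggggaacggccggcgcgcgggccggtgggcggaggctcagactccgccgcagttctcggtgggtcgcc
Chordc1 held 3 overlapping matches of the heat shock element. That motif lay in a window of 3 of the 6 heat shock genes that passed (Chordc1, Hsph1 and Hspd1), against 58 of 10532 tested genes with a window (0.551%). The ER stress element lay in all 3 ER genes with a window, against 15 of 10532 (0.142%). Among all genes that passed the strain test and had a window, each of these motifs lay in 3 of 64 (4.69%). List genes that did not pass were not counted apart, so nothing about the strain contrast is read from these shares. Manf was not among the windows read. A match says that these letters are present and nothing about binding.

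Among activity-induced early genes 3 of 27 passed, beside 0.558% of all genes tested, with a list median of 0.26 and 24 positive. Fosl2, an AP-1 transcription factor, averaged 6.36 ± 0.37 and 5.90 ± 0.14 in 129SV KO (higher and lower numbers, SD, n = 5 each), and 6.81 ± 0.16 and 6.03 ± 0.20 in 129SV WT (n = 4 and 5). In C57 it averaged 6.11 ± 0.12 and 6.43 ± 0.16 in KO (n = 4 and 5), and 6.19 ± 0.26 and 6.48 ± 0.14 in WT (n = 5 and 4). Its strain contrast was 0.92 (SE 0.13, limma adjusted p = 0.0007), while a second and dimmer Fosl2 probe set gave −0.14. Dusp6, a MAP kinase phosphatase, had 0.68 and the nuclear receptor Nr4a3 0.64, whose second probe set gave −0.23. With the mean of the probe sets of a gene neither Fosl2 (limma adjusted p = 0.0735) nor Nr4a3 (0.658) passed. Fos itself had 0.93 and did not pass (limma adjusted p = 0.0653).

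Dbp, a clock output transcription factor, went the other way. In 129SV KO it read 8.91, 8.57, 8.89, 8.73 and 8.54 on the higher-number arrays, and 9.54, 9.32, 9.34, 9.28 and 9.82 on the lower-number arrays. In 129SV WT it read 8.55, 8.41, 8.77 and 8.60 on the higher-number arrays, and 9.50, 9.16, 9.34, 9.68 and 9.27 on the lower-number arrays. The 129SV sets were apart in both genotypes. In C57 KO it read 9.04, 8.80, 9.10 and 8.71 on the higher-number arrays, and 9.03, 8.79, 8.74, 8.87 and 9.03 on the lower-number arrays. In C57 WT it read 9.21, 9.45, 8.98, 9.01 and 9.03 on the higher-number arrays, and 9.18, 9.36, 9.10 and 9.35 on the lower-number arrays. The C57 sets overlapped throughout. The contrast was −0.72 (SE 0.12, limma adjusted p = 0.0011), and a second Dbp probe set gave −0.65. Of 18 clock genes 3 passed, beside the same 0.558%, and 6 were positive. Ciart, a repressor of the clock activators, had −0.60 (limma adjusted p = 0.0096), and Arntl, the activator BMAL1, had 0.40 (limma adjusted p = 0.0102), though its second probe set gave −0.09 and the mean of its probe sets did not pass (limma adjusted p = 0.295). The E-box CACGTG, which clock activators bind, had 3 matches in the window of Ciart and none in those of Dbp and Arntl. It lay in a window of 1218 of 10532 tested genes with a window (11.6%).

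**Figure D4:**
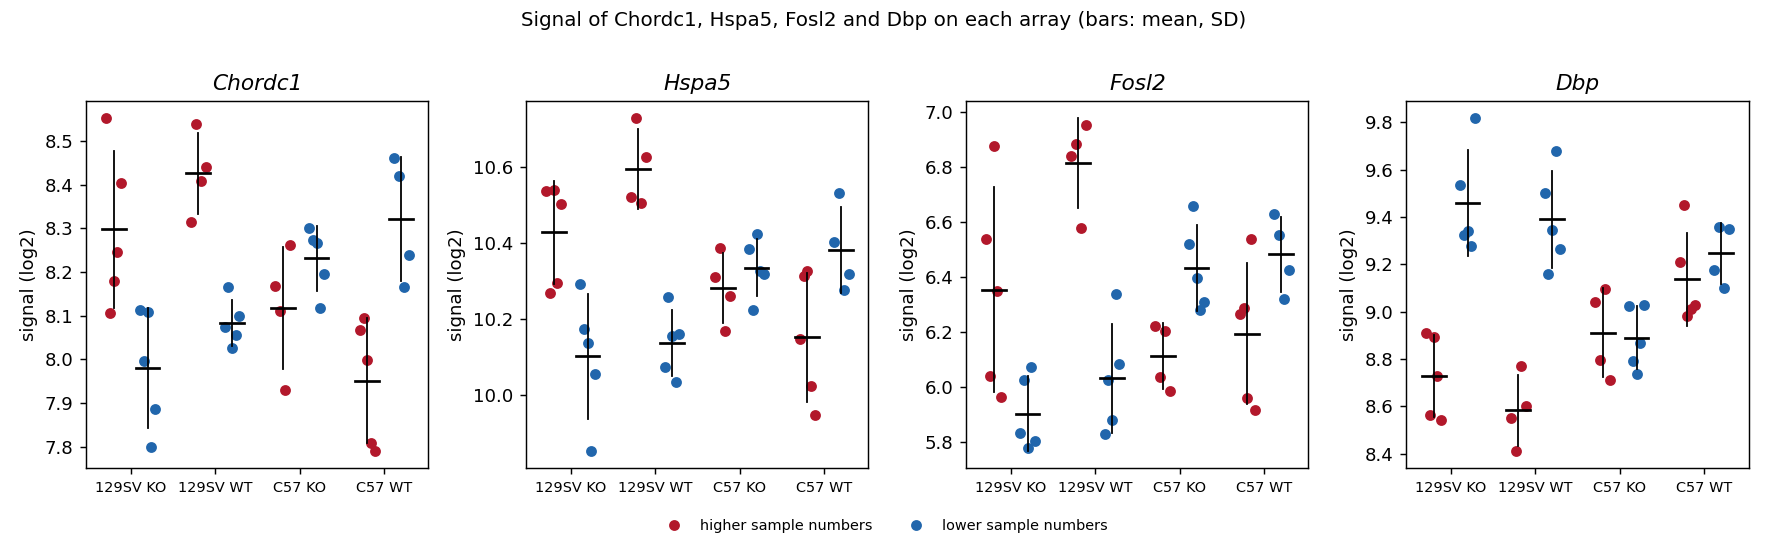
Signal (log2, vertical axis) of Chordc1, Hspa5, Fosl2 and Dbp on every array, by group of strain and genotype (horizontal axis), with the higher sample numbers in red left of the lower ones in blue, a bar at each mean and a line of 1 SD either way. In 129SV the red points of Dbp lie at 8.41 to 8.91 and the blue ones at 9.16 to 9.82, whereas in C57 they overlap.

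**Figure D5:**
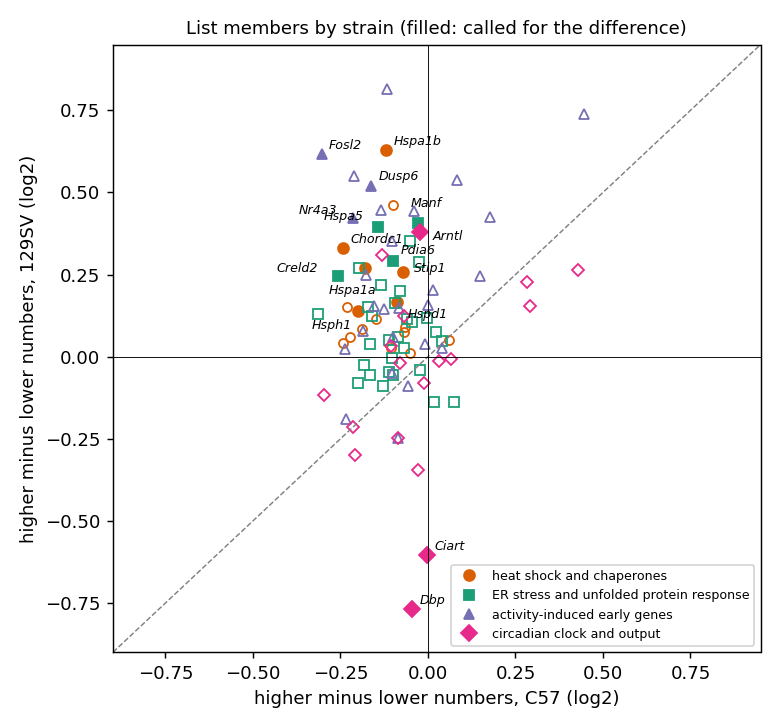
Difference between the higher and the lower sample numbers (log2) in 129SV (vertical axis) against C57 (horizontal axis) for members of 4 gene lists; filled and named symbols passed the strain test, and the dashed line marks equal differences. Most heat shock, ER stress and early genes lie above the line, and Dbp and Ciart lie far below it at −0.77 and −0.60 in 129SV.

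Of 29 splicing genes Hnrnpc passed (0.34, but not with the mean of its probe sets, limma adjusted p = 0.180), and the remaining lists had no member that did. Mettl16, an RNA methyltransferase, was among the 5 genes with the lowest adjusted p (0.63, SE 0.10, limma adjusted p = 0.0011). In 129SV its sets were apart in both genotypes, at 6.31 to 6.64 and 5.72 to 6.07 in KO and at 6.54 to 6.65 and 5.59 to 6.02 in WT, higher and lower numbers in that order. Markers of striatum had the sign of the heat shock genes: 17 of 17 measured were positive with a median of 0.25, and none passed. The mean striatal marker level, relative to each gene's own mean, lay between −0.65 and 0.32 on the higher-number arrays and between −0.54 and 0.66 on the lower-number arrays. The same marker mean differed between sets by −0.04 in 129SV KO, 0.20 in 129SV WT, −0.21 in C57 KO and −0.25 in C57 WT. Microglial markers had a median of 0.20, with 12 of 13 positive and none passing. The strain contrast of the actin 3′ minus 5′ difference was −0.20 and that of the labelling controls −0.02. For 18S RNA it was −0.67 by the 5′ probe set and −0.27 by the 3′ probe set. Array 73 of 129SV WT, which stood apart for actin and 18S RNA, enters these contrasts. The part of dissection and of these controls in the strain contrast was not tested.

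KO was then compared with WT inside each set. In C57, 4 genes passed among the higher numbers (0.0306%, with 7.4% at an unadjusted p under 0.05) and 3 among the lower numbers (0.0229%, with 3.37%). Wfs1, Abhd1 and Drc1 passed in both. Wfs1 differed by −6.27 (SE 0.15) in the higher set and −6.29 (SE 0.15) in the lower set, and since its KO signals lay at or under the detection filter, these sizes depend on signals below that level. Abhd1, a hydrolase-fold protein, averaged 5.71 ± 0.10 in KO and 4.63 ± 0.46 in WT of the higher set (SD, n = 4 and 5), and 6.01 ± 0.14 and 4.33 ± 0.17 in the lower set (n = 5 and 4). Drc1, of the ciliary dynein regulatory complex, was higher in KO by 0.72 and 0.54 in the higher and the lower set. Lgi2 passed in the higher set alone (−0.74, limma adjusted p = 0.0071, against −0.55 and 0.222 in the lower set), and no genotype contrast of the set difference passed for any gene. With the number set as a block, 15 C57 genes passed (0.115%, with 6.76% unadjusted), against 14 without it (0.107%). Leaving out C57 KO array 17 gave 8 genes in the higher set, and the block gave 6 genes without C57 WT array 25 and 8 without C57 KO array 7, C57 WT array 33 or C57 WT array 42. In 129SV, Wfs1 was the 1 gene that passed in the higher set, in the lower set and with the block (0.00765% each), where 4.42%, 3.96% and 2.36% of genes had an unadjusted p under 0.05.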

How the data were processed

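The authors deposited 1 table of log2 signals for 45101 probe sets on 37 arrays. Per the submitters' processing notes MAS5 and GCRMA were used, with neither role nor version stated there. The deposited values (1.34 to 13.76) were used without further scaling. Of the probe sets 64 were controls, 34945 had 1 gene symbol, 932 several and 9160 none; genes were named by the platform annotation and the brightest probe set represented each. A gene was used when its mean reached the 40th percentile of probe set means (3.60) in at least 1 group.

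Number sets were read from the sample titles. Differences between sets came from an additive model with strain and genotype groups as blocks, and other contrasts from a model with 1 mean per group and set (limma 3.58.1, R 4.3.3, 2-sided, Benjamini-Hochberg adjusted p under 0.05 over 13078 genes), tested on simulated data. Members, lists and tests were chosen with earlier results of these data known. Named genes were the 3 markers and Wfs1, the 12 largest and 12 lowest differences of one sign in all groups, up to 3 members a list by size of difference, the 5 lowest adjusted p of each interaction, and genes called for KO minus WT in a set; list members that passed the strain test and the probe set examples were chosen after their values were seen. Alternatives were other filters, scalings, probe set rules, models, the actin control as covariate, and arrays left out. The number of arrays limits the precision. Plots used Python 3.11.15 and matplotlib 3.10.9.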

Additional observations from a re-analysis of the deposited data

Results flagged for a closer look

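The difference between the higher and the lower sample numbers itself differed between 129SV and C57 in the limma interaction test for Chordc1 (0.57 on the log2 scale, 129SV minus C57), Fosl2 (0.92), Dbp (−0.72), Hspa5 (0.54) and Mettl16 (0.63), the 5 genes with the lowest adjusted p. Among the arrays of a group and set, 1 value stood far from the rest: Mettl16 read 6.08 on C57 WT array 40 of the higher numbers, against 6.37 to 6.48 on the other arrays of that set, a gap of 0.729 of the whole range. This was 1 of 64 gene and group combinations examined, and chance alone gives about 1 in 20.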

How the results depend on the processing

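Alternatives were run for 24 gene differences (the 12 largest and 12 lowest) and 18 strain contrasts, and none of these changed sign; other named list members were not rerun. Averaging the probe sets of a gene gave 3 genes at least 0.5 lower (6 with the brightest probe set), 4 at least 1 higher (7), 89 and 1 without overlap above and below (42 and 2) and 6 for the F test (10). It also took Map1b to 0.69, Malat1 to 0.76, Ankrd12 to 0.28 and Csnk2a1 to 0.29, and in the strain contrast Fosl2 (adjusted p = 0.0735), Arntl (0.295), Hnrnpc (0.180), Nr4a3 (0.658) and Pdia6 (0.138) no longer passed in limma. Counting every probe set, added after seeing the data, gave 478 higher by 0.5 and 13 lower, 128 higher by 1, 279 and 4 without overlap, 119 for strain, 27 for the F test, and for KO against WT in C57 7 in the higher set, 8 in the lower set and 25 with the block. This counts more features, and the cause was not otherwise tested. Quantile normalization left 4 without overlap below, and Hspa1a (limma adjusted p = 0.0923), Hspa1b (0.101), Hspd1 (0.112), Nr4a3 (0.0584) and Stip1 (0.112) did not pass. The F test passed for 21 genes with a trended, robust prior.

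With each array left out in turn, genes at least 0.5 higher numbered 54 to 66, lower 4 to 6, at least 1 higher 7 to 9, and without overlap 42 to 49 above and 2 to 3 below. The strain contrast gave 52 to 148 genes, with 148 without 129SV KO array 57 and 118 without 129SV KO array 59. The F test gave 6 to 30, with 30 without 129SV KO array 59, 27 without C57 WT array 33, 18 without C57 KO array 17, 16 without 129SV KO array 54 and 6 without 129SV WT array 77 or 79. For KO against WT in C57 the higher set gave 3 to 8 (8 without C57 KO array 17), the lower set 2 to 4 and the block 6 to 19, with 6 without C57 WT array 25 and 8 without C57 KO array 7 or C57 WT array 33 or 42. In 129SV the count stayed at 1, and the genotype and three-way contrasts stayed at 0. Hspa1b failed in 26 of the 37 fits with an array left out, Hspd1 in 25, and Hspa1a and Stip1 in 4 each. No paired analysis was possible because each sample number occurs once and no groups share one. Gprin3 on lower-number arrays lay under the filter, so the size of its difference depends on signals below that level.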
